A study of Homo sapiens with 40 samples.

Results

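CCL3 and CCL4 are chemokine genes, and their array ratios were followed through 6 experiments on 2 human lymphoma lines. The members are the probes whose only listed gene symbol is CCL3 or CCL4, 4 probes for CCL3 and 8 for CCL4. They make up 12 of 15246 probes and 2 of 4604 genes. The pair was chosen by its ratios in OCI-Ly10, whose direction differed between treatments. Every value from OCI-Ly10 below is therefore a description of what chose the genes, with no test. Tests are given in OCI-Ly3, whose values the choice did not use.

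CCL3 (MIP-1 alpha) and CCL4 (MIP-1 beta) are small secreted proteins that draw T cells, monocytes and other leukocytes. CCR1 is a receptor of CCL3. B cells make both chemokines after signalling through the B cell receptor, and in lymphoma and leukaemia of B cells the pair is known as a readout of that signalling. Both genes are also known targets of NF-kB, a transcription factor that is held inactive in the cytoplasm by IkB proteins.

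OCI-Ly3 and OCI-Ly10 are cell lines from patients with diffuse large B cell lymphoma of the activated B cell-like subtype, a tumour known for constant NF-kB activity and, often, active STAT3. Each of the 40 spotted arrays compared Cy5-labelled RNA of treated cells with Cy3-labelled RNA of control cells of the same line. OCI-Ly10 cells received the cytokine IL-6 (50 ng/ml; 0.5, 1, 3, 6 and 24 h; 8 arrays) or JAK inhibitor I (5 uM; 3 and 6 h; 4 arrays), each against OCI-Ly10 cells with no agent listed. OCI-Ly10 cells electroporated with a STAT3 siRNA SMARTpool, a mixture of siRNAs (4 uM; 8, 24 and 48 h; 5 arrays), were set against cells electroporated without siRNA. An inducible IkB super-repressor, a form of IkB that resists degradation and holds NF-kB inactive, was switched on with 20 ng/ml doxycycline. It was followed for 1.5, 3, 6 and 24 h in OCI-Ly10 (4 arrays) and for 1, 1.5, 2, 3, 4 and 6 h in OCI-Ly3 (9 arrays). The controls of both super-repressor experiments carried the construct too. OCI-Ly3 cells received IL-10, like IL-6 an activator of STAT3 (50 ng/ml; 1, 3, 6, 24, 48 and 96 h; 10 arrays). No array measured a non-targeting siRNA, a vehicle for the inhibitor or doxycycline in cells without the construct, so effects of these cannot be told apart from those of the intended target. The labels do not say whether the super-repressor lines were single clones, whether replicates were separate cultures or whether arrays shared control RNA. P-values therefore measure only the spread between these arrays, which may be technical.

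On chromosome 17 the genes are neighbours. In the RefSeq annotation of GRCh38.p14, CCL3 spans bases 36088256 to 36090143 and CCL4 spans 36103827 to 36105614, with 13683 bases between them. Each has a near-identical copy further along the chromosome, CCL3L3 (36194869 to 36196758) and CCL4L2 (36211063 to 36212873). The stretches of 250 bases before the starts of CCL3 (chr17:36090144-36090393, minus strand) and CCL3L3 (chr17:36196759-36197008, minus strand) are shown because they show how alike a gene and its copy are. Over 244 aligned bases 234 were identical (95.9%). CCL4 is named only. The sequences are from RefSeq and run 5′ to 3′ toward the start. Capitals mark the TATA box letters TATAAA.
CCL3: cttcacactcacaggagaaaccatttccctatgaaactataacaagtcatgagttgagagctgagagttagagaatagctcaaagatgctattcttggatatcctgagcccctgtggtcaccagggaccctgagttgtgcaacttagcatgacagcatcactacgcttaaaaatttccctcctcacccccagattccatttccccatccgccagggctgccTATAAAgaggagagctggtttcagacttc
CCL3L3: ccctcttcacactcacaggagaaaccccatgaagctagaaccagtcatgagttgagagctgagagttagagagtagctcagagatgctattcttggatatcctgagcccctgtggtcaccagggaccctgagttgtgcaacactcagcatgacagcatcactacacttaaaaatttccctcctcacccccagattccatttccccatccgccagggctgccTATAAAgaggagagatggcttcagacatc

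TATAAA stood 29 to 24 bases before the start in both stretches, and 10.7% of 35116 RefSeq promoters hold it in the same 250 bases. The stretches were also searched on both strands for the NF-kB consensus (in 9.96% of promoters), for TTCNNNGAA (STAT; 6.57%) and for TGANTCA (AP-1; 6.57%). Neither window held any of these letters, which says nothing about binding of these factors. A probe for CCL3 or CCL4 may also detect RNA of its copy, so a value below is that of the probe and not surely of 1 gene.

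Values are the deposited log ratios of treated over control cells after median-centring each array. They are taken to be log2, although no source states the base, and each log2 value or fold holds only under base 2. A gene's value is the mean of its probes on an array. Ratios carry no level, so neither the abundance of the chemokine RNAs nor the presence of B cell markers could be checked. In RNA from many cells, fewer cells making a chemokine and less RNA per cell cannot be told apart.

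In OCI-Ly10, both genes were above 0 early and below 0 late after IL-6. CCL3 was at 0.56 at 0.5 h (1 array) and at 0.54 and 0.62 on the 2 arrays of 1 h. It was at -0.41 and -0.35 at 3 h, at -0.70 and -0.78 at 6 h and at -0.74 at 24 h (1 array). All 3 arrays up to 1 h lay above 0, all 5 arrays from 3 h on lay below it, and replicates were closer to each other than to those of the next time between 1, 3 and 6 h. CCL4 was at 0.45 at 0.5 h and at 0.23 and 0.28 at 1 h. It was at -0.22 and -0.23 at 3 h, at -0.66 and -0.93 at 6 h and at -0.99 at 24 h. CCL4 changed sign between the same times as CCL3 and was lower at 24 h than on any earlier array. At 24 h CCL4 was the 4th lowest and CCL3 the 17th lowest of 3991 genes measured. At 1 h, CCL3 was higher than CCL4 by 0.31 and 0.34 on its 2 arrays.

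JAK inhibitor I gave the lowest values of either gene in the series. CCL3 was at -0.76 and -0.85 on the 2 arrays of 3 h, and at 0.18 and -0.48 at 6 h. CCL4 was at -1.05 and -1.41 at 3 h, and at -0.17 and -0.56 at 6 h. Both genes were nearer 0 on each 6 h array than on either 3 h array. The replicates of 6 h disagreed in sign for CCL3. At 3 h CCL4 was the 2nd lowest and CCL3 the 7th lowest of 4564 genes.

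After STAT3 siRNA both genes lay above 0 on all 5 arrays. CCL3 was at 0.54 at 8 h (1 array), at 0.40 and 0.36 at 24 h and at 0.61 and 0.54 at 48 h. These 5 values span 0.26, so CCL3 was about level from 8 to 48 h. CCL4 was at 0.55 at 8 h, at 0.43 and 0.47 at 24 h and at 1.28 and 1.02 at 48 h. CCL4 matched CCL3 at 8 and 24 h and exceeded it by 0.66 and 0.48 on the arrays of 48 h, where it was the 2nd highest of 4523 genes.

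The super-repressor in OCI-Ly10 had 1 array per time, so its values carry no spread. The arrays of 1.5, 3, 6 and 24 h gave 0.08, 0.48, 0.64 and 0.51 for CCL3, and 0.12, 0.34, 1.13 and 0.98 for CCL4. Both were near 0 at 1.5 h and above it from 3 h on, and CCL4 exceeded CCL3 by 0.49 at 6 h and 0.47 at 24 h. At 6 h CCL4 was the highest and CCL3 the 2nd highest of 4552 genes.

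**Figure D1:**
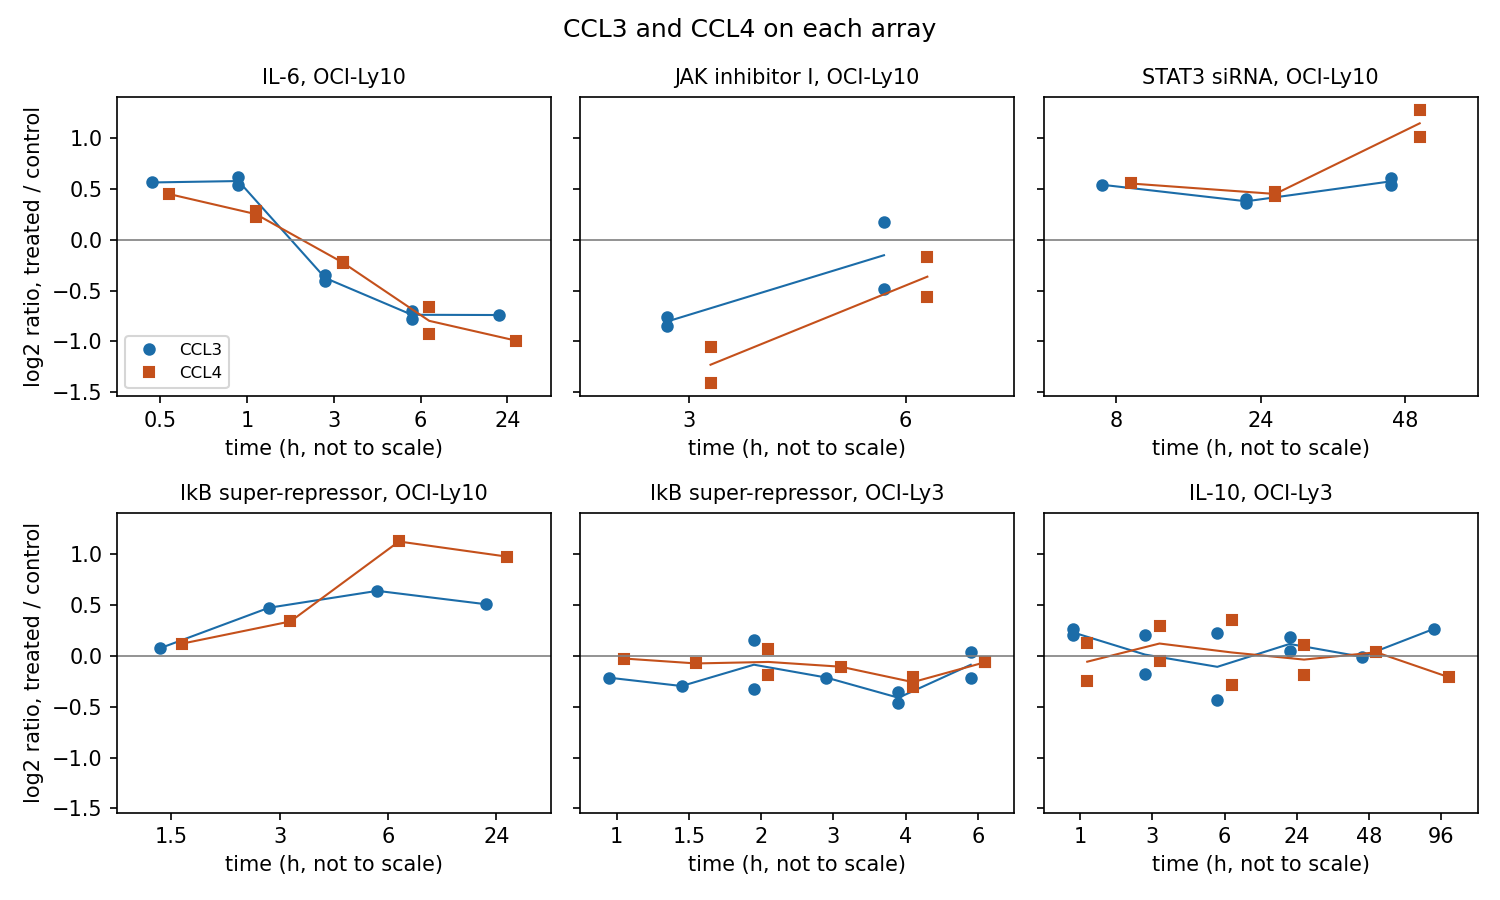
Log2 ratio of treated over control cells (vertical) against time in hours (horizontal, evenly spaced), for CCL3 (circles) and CCL4 (squares) in the 6 experiments. Each point is 1 array and lines join time point means. After IL-6 both genes pass from above to below 0 between 1 and 3 h. After STAT3 siRNA and the super-repressor in OCI-Ly10 they lie above 0, and in OCI-Ly3 they lie between -0.46 and 0.36.

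Averaged over each experiment's window with equal weight per time point, the super-repressor in OCI-Ly10 (3 to 24 h, 3 arrays) placed CCL4 at 0.82 and CCL3 at 0.54. CCL4 was the highest and CCL3 the 5th highest of 4515 genes. The siRNA (24 and 48 h, 4 arrays) placed CCL4 at 0.80, the highest of 4346 genes, and CCL3 at 0.48, the 20th highest. The JAK inhibitor (3 and 6 h, 4 arrays) placed CCL4 at -0.80, the 4th lowest of 4480 genes, and CCL3 at -0.48, the 38th lowest. IL-6 (1 to 24 h, 7 arrays) placed CCL4 at -0.44, the 13th lowest of 3301 genes, and CCL3 at -0.32, the 41st lowest, with early and late times of opposite sign in that mean. In size, the CCL4 mean exceeded the CCL3 mean in all 4 experiments. Without the 24 h array the IL-6 means were -0.18 for CCL3 and -0.26 for CCL4.

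In OCI-Ly3 neither chemokine passed the test in any comparison. With the super-repressor CCL3 lay below 0 on 7 of 9 arrays and CCL4 on 8 of 9. The single arrays of 1, 1.5 and 3 h gave -0.21, -0.30 and -0.21 for CCL3. It was at 0.16 and -0.33 at 2 h, at -0.46 and -0.36 at 4 h and at 0.04 and -0.22 at 6 h. The replicates of 2 and 6 h disagreed in sign, and both arrays of 4 h were below 0, with a mean of -0.41 (limma; 95% confidence interval -0.73 to -0.09; adjusted p = 0.150). On the same single arrays CCL4 was at -0.02, -0.07 and -0.10. It was at 0.07 and -0.18 at 2 h, at -0.21 and -0.30 at 4 h and at -0.06 on both arrays of 6 h. Only 1 of the 9 arrays, replicate 1 of 2 h, had CCL4 above 0.

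Over the window of 2 to 6 h (7 arrays) CCL3 was at -0.20 ± 0.08 (SE, limma; 95% confidence interval -0.38 to -0.02), below 0 on 5 of 7 arrays. That is 0.872 of the control level, with an interval of 0.771 to 0.986. Its p was 0.0306 before and 0.119 after Benjamini-Hochberg adjustment over all 4390 genes tested (limma). CCL4 was at -0.12 ± 0.08 (interval -0.29 to 0.05; adjusted p = 0.324, limma), below 0 on 6 of 7 arrays. So 0 of the 2 genes were called at an adjusted p under 0.05, where 14.1% of all genes were, and 1 of 2 had an unadjusted p under 0.05, where 31.1% did. Without replicate 1 of 2 h, CCL3 was at -0.26 and passed (adjusted p = 0.0429, limma). Across probes, the correlation between the 2 arrays of 2 h was -0.016. Leaving both out placed CCL3 at -0.24 (adjusted p = 0.117, limma). By run of consecutive array identifiers, CCL3 averaged -0.09 on the 3 window arrays of replicate 1 and -0.28 on the other 4, and CCL4 -0.07 and -0.16. With the run as a random block the adjusted p was 0.356 for CCL3 and 0.524 for CCL4 (limma).

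With IL-10 in OCI-Ly3 the values of both genes lay on either side of 0. CCL3 was at 0.26 and 0.20 at 1 h, at -0.18 and 0.20 at 3 h and at -0.43 and 0.22 at 6 h. It was at 0.05 and 0.18 at 24 h, at -0.01 at 48 h and at 0.27 at 96 h (1 array each at 48 and 96 h). CCL4 was at -0.24 and 0.13 at 1 h, at -0.05 and 0.30 at 3 h and at -0.29 and 0.36 at 6 h. It was at -0.18 and 0.11 at 24 h, at 0.04 at 48 h and at -0.21 at 96 h. Replicates 1 and 2 of CCL4 had opposite signs at all 4 times with a pair, replicate 1 always the lower, and those of CCL3 had opposite signs at 3 and 6 h.

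Over 1 to 96 h (10 arrays) CCL3 was at 0.09 ± 0.07 (SE; interval -0.06 to 0.24; adjusted p = 0.361, limma), above 0 on 7 of 10 arrays. CCL4 was at -0.02 ± 0.07 (interval -0.16 to 0.13; adjusted p = 0.874, limma), above 0 on 5 of 10. Of the pair 0 of 2 passed, where 35.5% of all genes were called. At an unadjusted p under 0.05 it was again 0 of 2, against 45.4% of all genes. The labels do not describe the runs, and from 1 to 24 h each replicate number was a run of its own. CCL4 averaged 0.23 on the 4 arrays of replicate 2 and -0.19 on the 4 of replicate 1, and CCL3 averaged 0.20 and -0.07. The part of the run in these values was not tested.

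The late times of IL-10 (24 to 96 h) minus the early ones (1 to 6 h) gave 0.08 ± 0.14 for CCL3 (adjusted p = 0.795) and -0.10 ± 0.14 for CCL4 (adjusted p = 0.714; limma), where 13.6% of genes were called. IL-10 minus the super-repressor at the shared times of 1, 3 and 6 h gave 0.22 ± 0.14 for CCL3 (interval -0.08 to 0.52; adjusted p = 0.489) and 0.10 ± 0.14 for CCL4 (adjusted p = 0.785; limma), where 3.55% were called. In both comparisons 0 of 2 passed, also before adjustment, where 24.8% of all genes had an unadjusted p under 0.05 in the first comparison and 14.6% in the second.

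In their window means the probes of each gene had 1 direction in OCI-Ly10 and not in OCI-Ly3. At single times of OCI-Ly10, CCL3 probes split in sign at 1.5 h of the super-repressor (3 above 0, 1 below). They also split at 6 h of the inhibitor (1 above, 3 below). In each of the 4 OCI-Ly10 experiments every probe's window mean had the sign of its gene. CCL3 probes ran from 0.27 to 0.78 with the super-repressor, from 0.27 to 0.68 with the siRNA, from -0.39 to -0.25 with IL-6 and from -0.83 to -0.08 with the inhibitor. CCL4 probes ran from 0.50 to 1.04, from 0.53 to 0.93, from -0.58 to -0.35 and from -1.28 to -0.30 in the same order. The probes of a gene thus had 1 direction but sizes that differed several times over with the inhibitor. CCL3 probes 26474_1 and 26475_1 lay nearest 0 there (-0.08 and -0.11), against -0.80 and -0.83 for 16426_1 and 16822_1. Among CCL4 probes, 26408_1 (-0.37) and 26409_1 (-0.30) lay nearest 0 and 34959_1 (-1.28) farthest. With IL-6 the same CCL3 probes 26474_1 and 26475_1 gave -0.30 and -0.39, against -0.25 for 16426_1 and -0.33 for 16822_1, so there the probes were not ordered in that way.

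With the super-repressor in OCI-Ly3, 1 CCL3 probe was above 0 and 3 below (-0.40 to 0.16), and 2 CCL4 probes above and 6 below (-0.27 to 0.09). With IL-10 it was 1 above and 3 below for CCL3 (-0.22 to 0.49) and 5 above and 3 below for CCL4 (-0.35 to 0.20). Tested alone over all probes, CCL3 probe 16426_1 passed with the super-repressor at -0.40 (adjusted p = 0.0116), and 26474_1 with IL-10 at 0.49 (adjusted p = 2.87e-05; limma). CCL4 probes 28398_1 (-0.31, adjusted p = 0.0244) and 28410_1 (-0.35, adjusted p = 0.00311; limma) passed with IL-10, while 5 other CCL4 probes lay above 0. Probe 16426_1 was the only member probe with a value on all 40 arrays. The median correlation between 2 probes of a gene over the 21 OCI-Ly10 arrays was 0.83 for CCL3 (6 pairs) and 0.95 for CCL4 (28 pairs). Over the 19 OCI-Ly3 arrays it was 0.14 and 0.34. Probes of a gene share the array and the RNA, so these values describe agreement and not replication. The OCI-Ly10 values also chose the pair, which favours a wide spread and so a high correlation there.

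**Figure D2:**
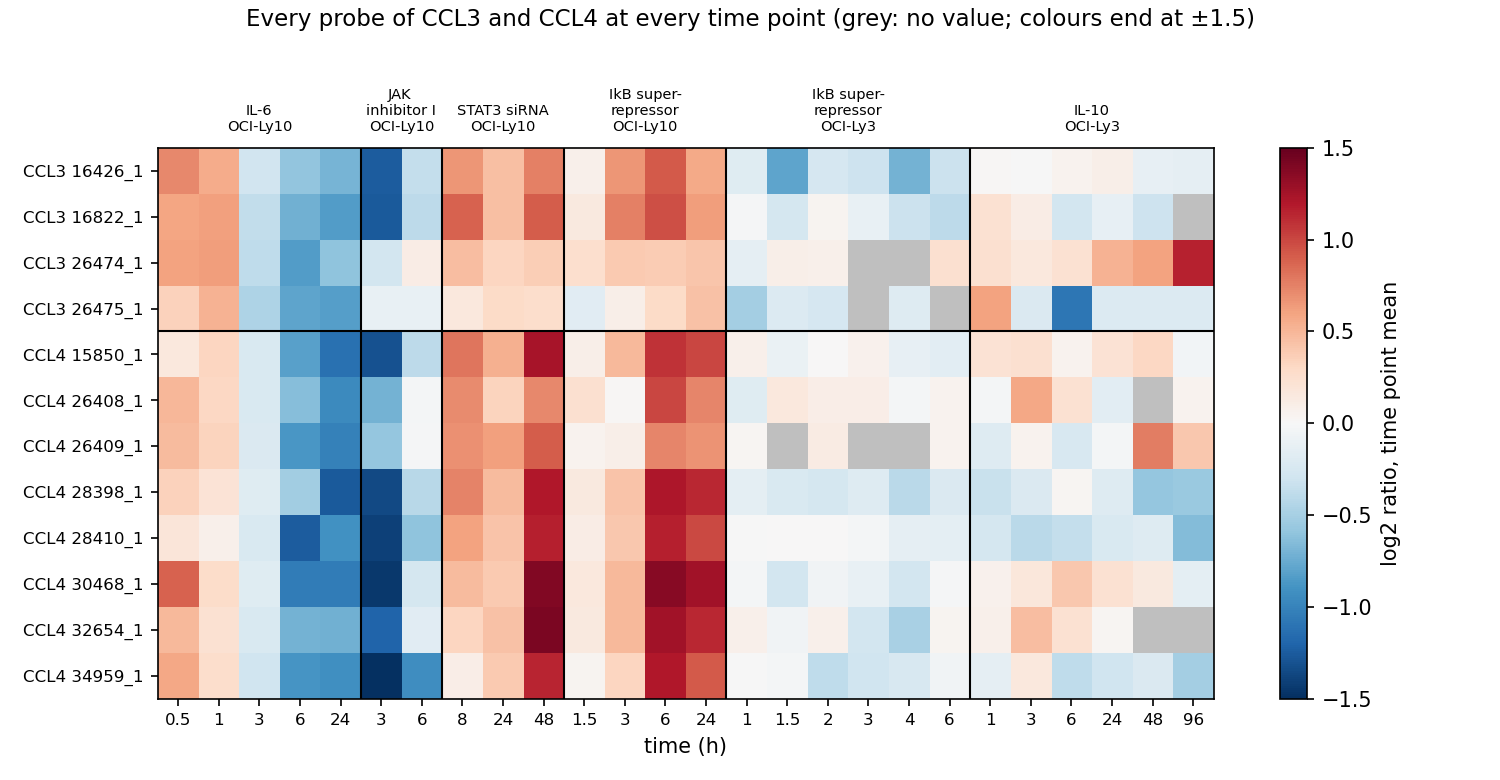
Mean log2 ratio of each probe of CCL3 (upper 4 lines) and CCL4 (lower 8 lines) at each of the 26 time points, in hours, with red above and blue below 0 and grey where no value was given. The columns of OCI-Ly10 are nearly all of 1 colour, and those of OCI-Ly3 are mostly pale and mixed.

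The spread over arrays is given as a description, since the choice of the pair favours a wide spread in OCI-Ly10 and the lines had other treatments. In OCI-Ly10 the values of CCL4 had an SD of 0.77 over arrays against a pooled replicate SD of 0.17 (7 pairs), and those of CCL3 0.57 against 0.18. In OCI-Ly3 the SD over arrays, 0.19 for CCL4 and 0.25 for CCL3, did not exceed the replicate SD of 0.25 and 0.26.

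CCL3 and CCL4 had the same sign at 14 of 14 OCI-Ly10 time points and at 7 of 12 in OCI-Ly3. Their time point means correlated at r = 0.94 (Spearman 0.85) over the 14 points and at r = 0.19 (Spearman 0.28) over the 12. Points of an experiment share a line, a treatment and possibly control RNA, and the OCI-Ly10 points were part of what chose the pair. Over all 26 points, each gene was the most like the other among 3998 genes (r = 0.89, Spearman 0.88). After CCL4, the genes most like CCL3 were UBA7 (r = 0.67), which encodes the enzyme that activates ISG15, ISG15 itself (0.65), a ubiquitin-like protein induced by interferon, the RNA-binding protein gene IGF2BP3 (0.65) and the interferon-induced IFI44L (0.65). After CCL3, those most like CCL4 were BIK (0.77), which promotes cell death, RBPMS (0.66), which encodes an RNA-binding protein, the casein kinase gene CSNK1D (0.64) and MLF2 (0.62). These are descriptions over the 26 points and say nothing of shared control.

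**Figure D3:**
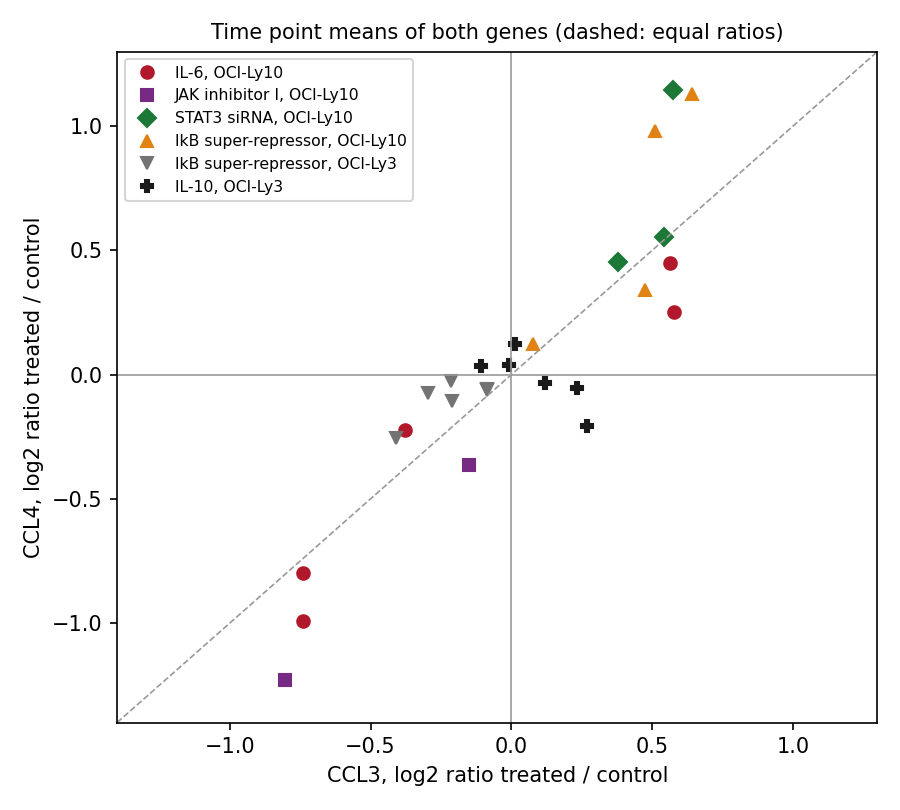
Time point means of CCL4 (vertical) against CCL3 (horizontal), both as log2 ratios of treated over control cells, 1 symbol per time point and 1 shape per experiment; the dashed line marks equal ratios. OCI-Ly10 points run from the lower left (JAK inhibitor and late IL-6) to the upper right (STAT3 siRNA, super-repressor and early IL-6), several of them off the line. OCI-Ly3 points lie around 0.

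CCL5, which encodes another ligand of CCR1 and lies on chromosome 17 too, passed in none of the 6 experiments. Its window means lay between -0.13 (siRNA) and 0.09 (IL-6). CCR1 rose with IL-6 (0.38 ± 0.09, adjusted p = 0.0153, limma; above 0 on 5 of 6 arrays with a value), but not with the array run as a random block (adjusted p = 0.0885) or in a fit of the IL-6 arrays alone (adjusted p = 0.0807). Between 1 and 4 of its 5 probes had a value on those arrays, and the highest array, 1.10 at 6 h, rested on 1 probe. CCR1 passed in no other experiment.

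TNF, which encodes a cytokine, is like CCL3 and CCL4 a known NF-kB target. With the super-repressor TNF fell in OCI-Ly3 by 0.82 ± 0.06 (adjusted p = 1.02e-07, limma; 7 of 7 arrays), where CCL3 and CCL4 were not called. In OCI-Ly10 it was at -0.18 ± 0.09 (adjusted p = 0.789, limma), where both chemokines were above 0. NFKBIA, the gene of IkB alpha and an NF-kB target, fell in both lines, by 1.61 ± 0.10 in OCI-Ly3 (adjusted p = 9.43e-09) and by 1.03 ± 0.15 in OCI-Ly10 (adjusted p = 0.00259; limma). Its probes may also detect the super-repressor's RNA. IL-10 lowered TNF by 1.54 ± 0.05 (adjusted p = 3.70e-14, limma; 10 of 10 arrays), and IL-6 by 0.41 ± 0.06 (adjusted p = 0.000432, limma; 7 of 7). With the siRNA TNF was at 0.25 ± 0.08 (adjusted p = 0.0754) and with the inhibitor at -0.17 ± 0.08 (adjusted p = 0.271; limma). In OCI-Ly10, TNF and the chemokine pair thus had window means on the same side of 0 with IL-6, the siRNA and the inhibitor and on opposite sides with the super-repressor. At the early times of IL-6 they lay on opposite sides too, with TNF at -0.22 at 0.5 h and at -0.12 and -0.02 on the arrays of 1 h, where both chemokines were above 0. STAT3 itself fell by 1.59 ± 0.17 with its siRNA (adjusted p = 4.54e-05, limma; 4 of 4 arrays). In a fit of the siRNA arrays alone 0 of 4346 genes passed (629 with unadjusted p under 0.05), STAT3 among those that did not (adjusted p = 0.229, limma). Every siRNA call here therefore rests on a spread shared with the other experiments. Calls with the super-repressor in OCI-Ly10, which had 1 array per time, rest on the spread of the other experiments alone.

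**Figure D4:**
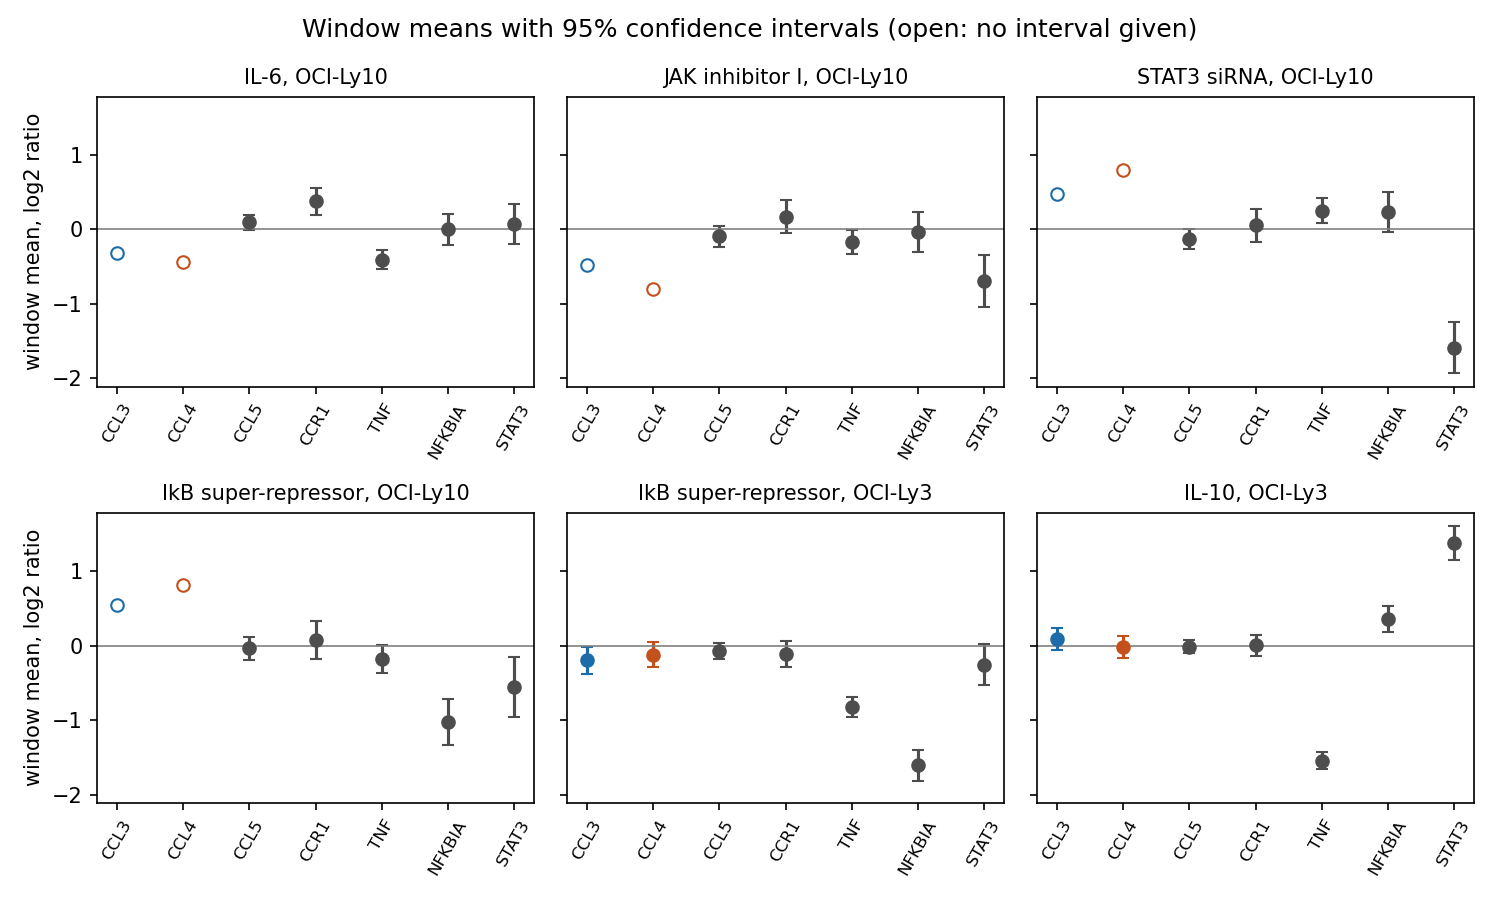
Window means as log2 ratios for CCL3, CCL4, CCL5, CCR1, TNF, NFKBIA and STAT3 in the 6 experiments, with 95% confidence intervals from limma as bars; open circles mark the OCI-Ly10 values of CCL3 and CCL4, which have no interval because they chose the genes. With the super-repressor NFKBIA lies below 0 in both lines, while CCL3 and CCL4 lie above 0 in OCI-Ly10 (0.54 and 0.82) and at -0.20 and -0.12 in OCI-Ly3.

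The other chemokine ligands were 36 genes on the array without CCL3 and CCL4. Their counts in OCI-Ly10 are given beside the share of all genes called, and a difference between treatments was not tested. With the siRNA 0 of 33 measured were called and with the inhibitor 0 of 36, against 3.59% and 3.28% of all genes (limma). The super-repressor lowered 1 of 36, CXCL10 (-1.22 ± 0.13, adjusted p = 8.52e-05, limma), against 0.532% of all genes. CXCL10, a T cell chemokine, was thus at the opposite end from CCL4 on the same 3 arrays. IL-6 raised 4 of 18 and lowered 0, with CXCL9 highest (0.45 ± 0.13, adjusted p = 0.0479, limma), against 5.91% of all genes. With the array run as a random block the ligands raised by IL-6 numbered 0 (CXCL9, adjusted p = 0.165) and with the replicate number as a block 6. The genes called with IL-6 over the whole array numbered 195, and 46 and 377 under these 2 blocks. In OCI-Ly3 the super-repressor lowered 5 of 35 and raised 0, with CXCL10 lowest (-0.72 ± 0.09, adjusted p = 5.38e-05, limma). That is 14.3% of the list, about the 14.1% of all genes. With the run as a block 1 ligand was left, where 119 of all 4390 genes were called. IL-10 raised 3 of 36, led by CXCL9 (3.00 ± 0.11), and lowered 3, led by CCL22 (-1.14 ± 0.09), or 16.7% of the list against 35.5% of all genes. With the replicate number as a block IL-10 raised 5 and lowered 5, where 1927 of all 4383 genes were called. The median of the list was -0.17 with the super-repressor in OCI-Ly3, against -0.03 over all genes, and between -0.08 and 0.10 in the other 5 experiments.

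Chemokine receptors had no call with the siRNA (0 of 16, against 3.59% of all genes). CCR8 fell with the inhibitor (1 of 17, against 3.28%; -0.42 ± 0.08, adjusted p = 0.0118, limma), a call lost in a fit of the inhibitor arrays alone (adjusted p = 0.115). CXCR4 rose with the super-repressor in OCI-Ly10 (1 of 17, against 0.532%; 0.44 ± 0.09, adjusted p = 0.0392, limma; adjusted p = 0.352 with the run as a block). CCR1 was the 1 of 11 called with IL-6, against 5.91%. With the replicate number as a block 3 rose, where 377 of all 3301 genes were called. In OCI-Ly3 the super-repressor raised 2 of 17, led by CXCR4 (0.42 ± 0.06), and lowered 3, led by ACKR3 (-0.59 ± 0.08), against 14.1% of all genes. With the run as a block it raised 1 and lowered 1, where 119 of all 4390 genes were called. IL-10 raised 1 of 17, CXCR5 (0.53 ± 0.05), and lowered 4, led by ACKR3 (-1.19 ± 0.06), or 29.4% of the list against 35.5% of all genes.

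Early response genes of the B cell receptor were measured beside the pair because CCL3 and CCL4 are known to follow that receptor. The inhibitor lowered 3 of 17 and raised 0, against 3.28% of all genes, led by the phosphatase gene DUSP2 (-1.08 ± 0.09, adjusted p = 8.03e-07, limma). The siRNA raised 2 of 17, led by NR4A3 (0.44 ± 0.07, adjusted p = 0.00429), and lowered 1, IER2 (-0.62 ± 0.14, adjusted p = 0.0267; limma), against 3.59% of all genes. IER2 lost its call when the run was a block (adjusted p = 0.0757), and both genes lost it in a fit of the siRNA arrays alone (adjusted p = 0.298 for each, limma). IL-6 raised 2 of 15, led by JUNB (0.36 ± 0.05), and lowered 0, against 5.91%. JUNB is also on the list of JAK-STAT3 feedback and target genes given below, so it counts in both lists. With the replicate number as a block IL-6 raised 3 and lowered 2, where 377 of all 3301 genes were called. The super-repressor in OCI-Ly10 lowered 1 of 17, against 0.532%, the microRNA host gene MIR155HG (-0.52 ± 0.09, adjusted p = 0.0101, limma; adjusted p = 0.085 with the run as a block). In OCI-Ly3 the super-repressor lowered 4 of 17, led by CD83 (-0.46 ± 0.06), against 14.1% of all genes. With the run as a block it lowered 2, where 119 of all 4390 genes were called. IL-10 raised 5, led by JUNB (0.94 ± 0.04), and lowered 5, led by DUSP5 (-1.19 ± 0.06), or 58.8% of the list against 35.5% of all genes.

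Of 17 components of B cell receptor signalling, 1 was called in OCI-Ly10, CD79B with the inhibitor (0.68 ± 0.13, adjusted p = 0.00392, limma; adjusted p = 0.149 in a fit of the inhibitor arrays alone). The background shares there were 3.28% with the inhibitor, 3.59% with the siRNA, 5.91% with IL-6 and 0.532% with the super-repressor. In OCI-Ly3 the super-repressor raised 2, led by BLNK (0.26 ± 0.07; adjusted p = 0.139 with the run as a block), or 11.8% of the list against 14.1% of all genes. IL-10 raised 5, led by FCGR2B (0.52 ± 0.04), and lowered 3, led by CD79A (-0.34 ± 0.08), or 47.1% against 35.5%.

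The 2 pathways that the treatments addressed were read from 2 further lists. The super-repressor lowered 17 of 23 other NF-kB targets in OCI-Ly3, against 14.1% of all genes called, and raised 1, TNFAIP2 (0.28 ± 0.08; adjusted p = 0.156 with the run as a block). In OCI-Ly10 it lowered 8 of 24 and raised 0, against 0.532% (4 lower with the run as a block, where 7 of 4515 genes were called). The median of these targets was -0.43 in OCI-Ly3 and -0.29 in OCI-Ly10, against -0.03 and -0.01 over all genes. The pair had the opposite sign to that median in OCI-Ly10. NF-kB targets had 0 calls of 24 with the siRNA, against 3.59% of all genes. The inhibitor lowered 2, against 3.28%, with BATF lowest (-0.56 ± 0.10; adjusted p = 0.0953 in a fit of the inhibitor arrays alone, limma). IL-6 lowered 1 of 22, TNF, against 5.91% (2 with the replicate number as a block, where 377 of 3301 genes were called). IL-10 raised 9 of 24, led by PIM2 (0.50 ± 0.11), and lowered 8, or 70.8% against 35.5%.

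Of 16 JAK-STAT3 feedback and target genes IL-6 raised 7, led by BCL3 (0.79 ± 0.07), against 5.91% of all genes. IL-10 raised 14, led by SOCS2 (1.91 ± 0.08), against 35.5%, and neither lowered any. The siRNA lowered 3 with STAT3 lowest, against 3.59%. STAT3 is on the list and is the siRNA's own target, so its fall is not a readout of the pathway. The inhibitor lowered 3 with BCL3 lowest (-0.76 ± 0.09), against 3.28%. In fits of their own arrays alone these counts were 0 for the siRNA and 1 for the inhibitor, where 0 of 4346 and 12 of 4480 genes were called. With the run as a block they were 2 and 1, where 51 of 4346 and 78 of 4480 genes were called. The super-repressor lowered 3 in OCI-Ly3, with SOCS2 lowest (-0.72 ± 0.10), against 14.1%, and 0 in OCI-Ly10, against 0.532%. With the run as a block it lowered 1 in OCI-Ly3, where 119 of all 4390 genes were called. CCL3 and CCL4 lay above 0 with the siRNA and below 0 at 3 h of the inhibitor, and these ratios were measured at different times.

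Markers of other cells that make CCL3 and CCL4 were mostly not called in OCI-Ly10. Of 11 T and NK cell markers 0 were called with the super-repressor, the siRNA or the inhibitor, against 0.532%, 3.59% and 3.28% of all genes. With IL-6, where the window means of the chemokines were below 0, 1 of 7 was higher (CD3G, named after its values were seen), against 5.91%. When the run was a block it was 0, where 46 of all 3301 genes were called. Their medians were 0.03, -0.04, -0.04 and 0.11. Of 5 myeloid markers 0 were called in these experiments (2 were measured with IL-6), with medians from -0.08 to 0.10. In OCI-Ly3, 0 of either list were called with the super-repressor, against 14.1% of all genes. With IL-10, 3 of 11 T and NK cell markers (27.3%) and 3 of 5 myeloid markers were called, against 35.5%. Ratios do not show whether a marker is absent, and the part of such cells in the values of CCL3 and CCL4 was not tested.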

How the data were processed

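The authors deposited, for each of 40 arrays, a log ratio of Cy5 to Cy3 per probe, read here as log2. Their background correction, spot filter and normalization are steps not given in the sources used here. Blank values made up 12.6% (8862 to 14947 of 15246 probes had one on an array), and array medians ran from -0.031 to 0.011. The number of arrays limits the precision. Arrays were median-centred, and the 10169 probes with 1 symbol in the platform annotation were averaged per gene; 5073 without and 4 with several were left out. With limma 3.58.1 (R 4.3.3), 1 mean per experiment and time point was fitted over all arrays, and window means were tested against 0 (two-sided, Benjamini-Hochberg, adjusted p under 0.05) for genes with values at every time point and on at least 75% of the window's arrays. Where arrays share control RNA, which the labels do not tell, such a ratio test leaves out the control's own spread. Without a dye swap a gene's dye bias stays in its ratio. A time point with 1 array takes its spread from the others. The script was tested on simulated data.

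The members and lists were chosen with earlier results of these data known. Besides the pair, the text names CCR1, CCL5, TNF, NFKBIA and STAT3, the 5 genes most like each member, and from each list the called member farthest from 0 in each direction. Alternatives were the centring, scaling, missing-value filter, probe summary, single probes, left-out arrays, blocks for replicate number and array run, and fits of 1 experiment. Replicate 2 minus replicate 1 correlated between times at 0.39 to 0.59 with IL-10 and at 0.18 to 0.23 with IL-6. Correlations were between -0.37 and 0.34 when OCI-Ly3 carried the super-repressor. With 2 numbered times, the siRNA and inhibitor gave 0.25 and 0.22. The numbered arrays of a replicate shared an array run in all these experiments. The correlations therefore cannot tell paired arrays from a run effect. The main p-values came from a fit without the replicate number.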

Additional observations from a re-analysis of the deposited data

Results flagged for a closer look

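CCL3 and CCL4 moved from above to below 0 between 1 h and later times of IL-6 in OCI-Ly10, with every replicate of the earlier time on one side of 0 and every replicate of the later time on the other. The 3 h mean minus the 1 h mean was -0.954 for CCL3 and -0.476 for CCL4. The 6 h mean minus the 1 h mean was -1.32 for CCL3 and -1.05 for CCL4. These differences were not tested, because the OCI-Ly10 values chose the genes. How many of all genes separate between these times in the same way was not counted.

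With the super-repressor at the times both lines share (1.5, 3 and 6 h), CCL4 lay between 0.12 and 1.13 on all 3 arrays of OCI-Ly10 and between -0.10 and -0.06 on all 4 of OCI-Ly3. The means differed by 0.605 (OCI-Ly10 minus OCI-Ly3). This difference was not tested here, because the OCI-Ly10 values chose the genes. At 1.5 h CCL4 was at 0.12 in OCI-Ly10 and at -0.07 in OCI-Ly3, and OCI-Ly10 had 1 array per time. On the same arrays CCL3 lay between 0.08 and 0.64 in OCI-Ly10 and between -0.30 and 0.04 in OCI-Ly3, so the separation was not particular to CCL4. The share of all genes with such a separation between the lines was not counted.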

How the results depend on the processing

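In OCI-Ly3, 8 results for CCL3 and CCL4 were refitted 175 times, and 7 refits passed the threshold. In OCI-Ly10 no alternative run turned the sign of a window mean. Below, the super-repressor is SR. The window means of OCI-Ly10 under alternatives, the CCL3 probe without gaps and the fit without both 2 h arrays were chosen after seeing the data.

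Single probes or other probe summaries changed the most. CCL3 turned sign with the median of probes for IL-10 (-0.021) and for late minus early (-0.10), and with its 1 probe without gaps (16426_1) for the same results (-0.017 and -0.078). That probe gave -0.40 for SR in OCI-Ly3 (past the threshold), -0.25 for IL-6 and 0.60 for the siRNA. Probe 16822_1 gave 0.78 for SR in OCI-Ly10, 0.68 for the siRNA and -0.83 for the inhibitor. Probe 26474_1 gave 0.49 for IL-10 and 0.55 for late minus early (both past the threshold), 0.35 for the siRNA and -0.08 for the inhibitor. Probe 26475_1 gave 0.27 for SR in OCI-Ly10, -0.39 for IL-6 and 0.27 for the siRNA. For CCL4 with IL-10, 15850_1 (0.17) and 30468_1 (0.15) turned sign, and 28398_1 (-0.31) and 28410_1 (-0.35) passed. Probe 28410_1 also gave -0.58 for IL-6 and turned IL-10 minus SR (-0.28). For SR in OCI-Ly10 the values were 0.58 (26408_1), 0.50 (26409_1) and 1.04 (30468_1), for the siRNA 0.53 (26408_1), and for the inhibitor -0.37 (26408_1) and -1.28 (34959_1). The cause was not tested. Arrays scaled to equal spread gave 0.79 (CCL3) and 1.20 (CCL4) for SR in OCI-Ly10 and 0.42 for CCL3 with the siRNA.

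Leaving out 1 array at a time gave ranges for CCL3 of -0.26 to -0.14 (SR, OCI-Ly3), 0.032 to 0.14 (IL-10; lowest without replicate 2 of 6 h), 0.10 to 0.33 (IL-10 minus SR; lowest without the 1 h array of SR), -0.64 to -0.31 (inhibitor; nearest 0 without replicate 2 of 6 h), -0.030 to 0.19 (late minus early; below 0 without replicate 1 of 6 h) and -0.33 to -0.18 (IL-6). For CCL4 they were -0.071 to 0.037 (IL-10), -0.21 to 0.0053 (late minus early), -0.010 to 0.21 (IL-10 minus SR; both turned without replicate 2 of 6 h of IL-10), -0.47 to -0.26 (IL-6) and 0.66 to 1.05 (SR, OCI-Ly10). CCL4 with IL-10 turned sign without replicate 1 of 1, 3, 6 or 24 h or the array of 96 h.

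Counts of called genes were 619 (SR, OCI-Ly3), 24 (SR, OCI-Ly10), 195 (IL-6), 156 (siRNA), 147 (inhibitor) and 1556 (IL-10). Scaled arrays gave 239 for SR in OCI-Ly10 (124 higher, against 10 of 24), 516 for IL-6 (315 higher, against 145 of 195), 93 for the siRNA and 241 for the inhibitor. With the replicate number as a block the counts were 1117, 39, 377, 443, 263 and 1927 in the order first given. With the array run as a random block (correlation 0.262) they were 119, 7, 46, 51, 78 and 1043. The replicate block changed no call of CCL3 or CCL4, and TNF with the siRNA passed under it (adjusted p = 0.0404, limma); CCL3 with SR in OCI-Ly3 had adjusted p = 0.0551 (limma). Fitted on the experiment's own arrays, counts were 379 (SR, OCI-Ly3), 12 (inhibitor) and 0 (siRNA; 629 with unadjusted p under 0.05, limma); SR in OCI-Ly10 has no replicates, so that fit was not run. Leaving out 1 array gave 267 to 970 (SR, OCI-Ly3), 1 to 17 (SR, OCI-Ly10), 105 to 172 (IL-6), 25 to 120 (siRNA), 45 to 161 (inhibitor) and 1169 to 1582 (IL-10). The lowest counts were without replicate 1 of 6 h (SR, OCI-Ly3), the 24 h array (SR, OCI-Ly10), replicate 2 of 1 h (IL-6), replicate 1 of 24 h (siRNA) and replicate 2 of 3 h (inhibitor). Signal over background was not used here.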
